A study of Homo sapiens with 12 samples.

Results

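The libraries labelled U138MG compare PTDSS1i, an inhibitor of phosphatidylserine synthase 1, with its vehicle DMSO, 3 libraries against 3. They were taken by their label and by the matching columns of the raw count table for that cell line, and they are 6 of the 12 RNA-seq libraries of the series. The other 6 come from KYSE30, an esophageal squamous carcinoma line given the same treatments. The vehicle group, DMSO 1 to 3, and the treated group, PTDSS1i 1 to 3 at 100 nM, were both harvested at 48 h, and the labels give both as wild type. A single dose and a single time were measured, so neither a dose response nor an order of events can be read from these libraries. Of 78691 genes listed in the table, 17666 passed a filter on low counts and were tested, and 43615 had no count in any of the 6 libraries.

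Phosphatidylserine is an acidic phospholipid made in the endoplasmic reticulum (ER) by exchanging the head group of phosphatidylcholine, through PTDSS1, or of phosphatidylethanolamine, through PTDSS2. Mitochondria turn part of it into phosphatidylethanolamine, which is also made from ethanolamine by the CDP-ethanolamine pathway. The ER senses both unfolded protein and changes in its membrane through PERK, IRE1 and ATF6, and PERK phosphorylates the translation factor eIF2alpha, which favours translation of the transcription factor ATF4.

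U138MG is the name of a glioblastoma line, and most of that lineage's markers were absent or low in the 6 libraries. Of 16 glial and glioma genes, *OLIG1*, *OLIG2*, *S100B* and *NCAN* had no count in any library, and 8 stayed under 1 CPM, a count scaled to the library total, in every library. *GFAP*, the intermediate filament of astrocytes, had a mean of 2.36 CPM in DMSO and 1.35 CPM in PTDSS1i, and *VIM* had between 3 and 11 counts in a library. The glial genes that reached 10 CPM in every library were *SLC1A3*, a glutamate carrier, with means of 32.6 and 21.7 CPM in DMSO and PTDSS1i, and *ALDH1L1*, a folate enzyme, with 21.1 and 15.3 CPM. *SOX2*, a factor of squamous progenitors as well, had 38.9 and 4.29 CPM. The 16 glial genes summed to 98.9 to 108 CPM in DMSO and 52.3 to 54.3 CPM in PTDSS1i. Of 16 epithelial and squamous genes, 15 reached 10 CPM in every library, and *KRT14* was under 1 CPM. Summed levels of 16 mesenchymal markers were 863 to 896 CPM in DMSO and 462 to 475 in PTDSS1i, of which *SPARC* held a mean of 713 and 348 CPM, and 7 of the 16 were under 1 CPM in every library. Those of 10 haematopoietic and endothelial markers were 48.7 to 52.1 and 131 to 136 CPM, of which *CD68*, a lysosomal membrane protein, held 28.4 and 103 CPM. The libraries are therefore called by their label, with no cell type read from it. The sample label also gives the growth medium of KYSE30 for these cultures, whereas the methods of the study give DMEM for U138MG.

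Total counts ran from 19141002 in DMSO 1 to 26514658 in PTDSS1i 3, so that 3 counts corresponded to at most 0.157 CPM. The scaling factors of the TMM method, which corrects for a few genes taking a large share of a library, were 1.05 to 1.06 in DMSO and 0.946 to 0.953 in PTDSS1i. Genes of the mitochondrial genome held 1.11% to 1.15% of the counts in DMSO and 1.65% to 1.75% in PTDSS1i, and the number of genes with at least 1 count went from 26611 to 27263 in DMSO down to 25441 to 25671 in PTDSS1i. The part of these shifts in the results below was not tested. In bulk RNA, fewer cells of a kind and less RNA per cell cannot be told apart.

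Across the transcriptome, the treatment separated the libraries along the first principal component, which held 80.0% of the variance. At an adjusted p under 0.05, 5989 genes rose (33.9% of those tested) and 5930 fell (33.6%), in the quasi-likelihood test of edgeR, with p-values adjusted after Benjamini and Hochberg over all 17666 genes. With a change over 2-fold required as well, 1446 genes were higher (8.19%) and 2048 were lower (11.6%). Values of the PTDSS1i libraries lay wholly above or below those of DMSO for 71.4% of all tested genes, so a lack of overlap is common here. Below, "rose" and "fell" mean an adjusted p under 0.05 in this test, values are CPM normalized by TMM, and a fold change is given as the log2 of PTDSS1i over DMSO.

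Loss and gain were spread unevenly over expression levels. Among 4501 genes at 50 CPM and over, 8.06% were more than 2-fold higher and 2.29% more than 2-fold lower. Among 2388 genes under 1 CPM the shares were 10.5% and 29.2%. The filter asks for counts in only 3 of the 6 libraries, so a gene this low can pass through the group where it is high, and with at least 10 counts in every library 1041 genes were higher and 1273 lower of 15389. Protein-coding genes were called higher and lower about equally, in 8.42% and 8.36% of 13392 genes. Of 3821 long non-coding RNAs, 7.56% were higher and 22.7% lower, with a median log2 fold change of -0.38 against 0.040 for the protein-coding genes. Among 3377 genes of any type at 1 to 5 CPM, 21.6% were lower. The part of expression level in the difference between gene types was not tested.

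**Figure D1:**
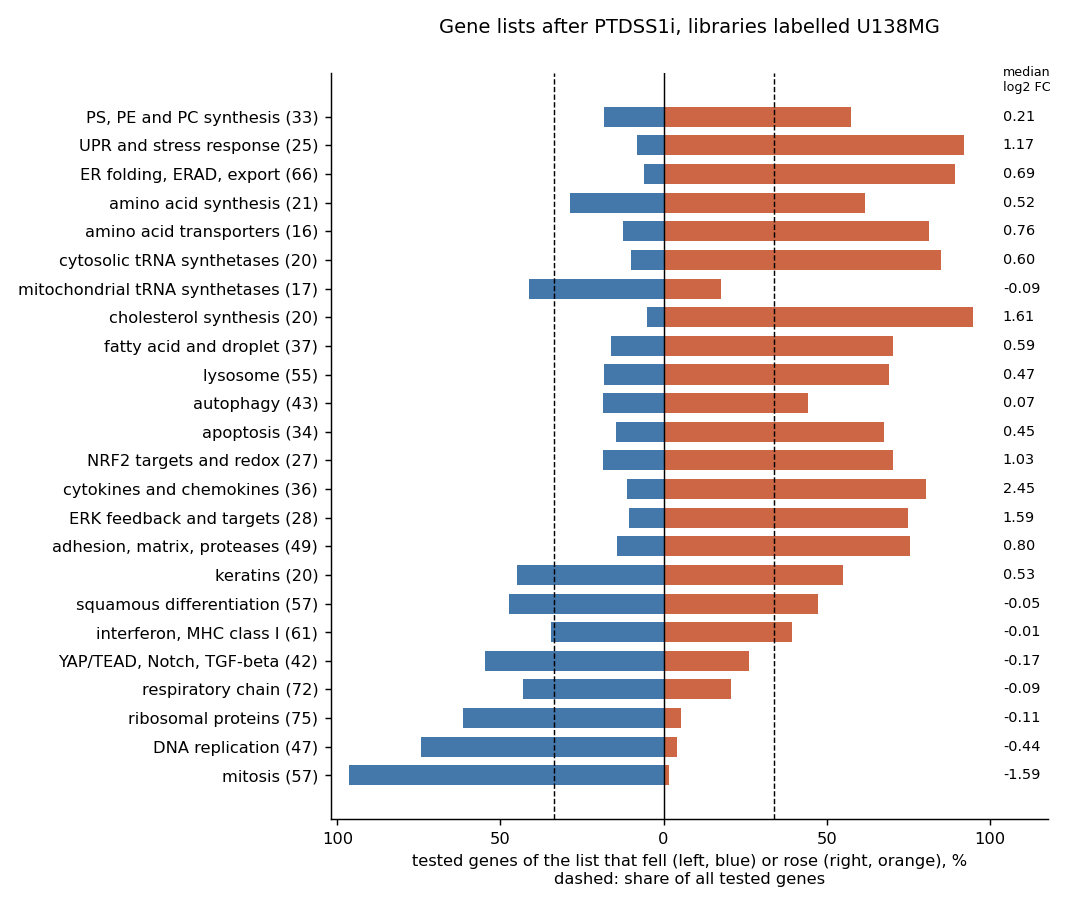
Share of the tested genes of each list that fell (left, blue bars) or rose (right, orange bars) in the libraries labelled U138MG, in percent, with the number of tested genes in brackets, the median log2 fold change at the right and dashed lines at the shares of all tested genes, 33.6% and 33.9%. Cholesterol synthesis, the stress response and ER folding lie far to the right and mitosis far to the left, while keratins go both ways, and the autophagy median of 0.07 turns negative when counts are scaled by library size alone or by the upper quartile.

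Enzymes of phosphatidylserine, phosphatidylethanolamine and phosphatidylcholine synthesis rose more often than they fell, by small amounts. Of 33 tested genes 19 rose and 6 fell, 2 and 1 of them by more than 2-fold, with a median log2 fold change of 0.21 against -0.026 for all tested genes. *PTDSS1*, which encodes the enzyme the compound inhibits, had 96.6, 90.5 and 91.6 normalized CPM in DMSO 1 to 3 and 70.3, 68.9 and 74.4 in PTDSS1i 1 to 3. Every treated library lay below every vehicle library, and *PTDSS1* fell by 0.38 on the log2 scale (standard error 0.044, edgeR adjusted p = 1.06e-08). Its partner *PTDSS2* had 11.4 ± 1.05 normalized CPM in the DMSO libraries and 11.0 ± 0.221 with PTDSS1i (SD, n = 3), and the groups overlapped (edgeR adjusted p = 0.677). *PISD*, the mitochondrial decarboxylase that makes phosphatidylethanolamine from phosphatidylserine, rose by 0.21 on the log2 scale, a call that was lost under scaling by library size alone or by the upper quartile.

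The largest rise among these enzymes was in the branch that makes phosphatidylethanolamine without phosphatidylserine. *SELENOI*, the ethanolamine phosphotransferase of its last step, had 78.9, 76.8 and 81.7 normalized CPM in the DMSO libraries and 208, 211 and 214 with PTDSS1i. The treated libraries were all more than 2-fold above the vehicle libraries (log2 fold change 1.42, standard error 0.037, edgeR adjusted p = 4.62e-23). *PCYT2*, which makes CDP-ethanolamine, rose from 28.0 ± 2.74 to 52.6 ± 1.73 normalized CPM (SD, n = 3). The ethanolamine kinases *ETNK1* and *ETNK2* rose by 0.36 and 0.83 on the log2 scale. In this pathway and its choline counterpart 8 of 11 tested genes rose and 2 fell, the latter being *CHPT1*, a cholinephosphotransferase, and *CHKB*, a choline kinase whose exons overlap the readthrough *CHKB-CPT1B* and whose call was lost on leaving out replicate 1 or 2 of DMSO or replicate 3 of PTDSS1i. Their log2 fold changes had a median of 0.43.

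Acyltransferases that rebuild the fatty acyl chains of phospholipids moved the same way. Of 8 tested, 6 rose and none fell, with a median log2 fold change of 0.40. *LPCAT1* rose from 199 ± 11.0 to 485 ± 10.6 normalized CPM (SD, n = 3), or 1.28 as the log2 fold change. *MBOAT2* rose by 0.68. *LPCAT3*, which favours polyunsaturated chains, had a log2 fold change of 0.13 that changed sign under scaling by library size alone or by the upper quartile. Its call was also lost in DESeq2, with at least 10 counts in every library, and without replicate 1 or 2 of DMSO or replicate 3 of PTDSS1i. Among 11 genes of phosphatidylserine transport and flipping, *OSBPL5*, an ER and plasma membrane exchanger of phosphatidylserine, fell from 9.36 ± 0.411 to 3.08 ± 0.372 normalized CPM (SD, n = 3), or -1.60 as the log2 fold change.

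Genes of the unfolded protein response (UPR) and of the integrated stress response formed a list in which every tested member passed. Of 25 genes 23 rose and 2 fell, 14 of the rises were over 2-fold, and the median log2 fold change was 1.17. *DDIT3*, which encodes the transcription factor CHOP, had 6.59, 4.91 and 5.24 normalized CPM in the DMSO libraries and 56.7, 56.8 and 57.9 with PTDSS1i. All 3 treated libraries stood about the same distance above the vehicle libraries (log2 fold change 3.37, standard error 0.081, edgeR adjusted p = 6.15e-24), although the exons of *DDIT3* overlap those of *MARS1* and *MBD6*.

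*CHAC1*, a glutathione-degrading enzyme downstream of ATF4, had 0.799, 0.470 and 1.15 normalized CPM in the DMSO libraries and 15.9, 16.8 and 17.2 with PTDSS1i. It had the largest log2 fold change of the list, 4.36 (standard error 0.17, edgeR adjusted p = 8.18e-19). *TRIB3*, a pseudokinase that restrains ATF4 and CHOP, rose from 15.9 ± 0.849 to 174 ± 4.81 normalized CPM (SD, n = 3). *ATF3*, a repressor of the same family, rose from 10.8 ± 0.105 to 99.5 ± 2.57. *PPP1R15A*, the phosphatase subunit that reverses eIF2alpha phosphorylation, rose by 1.79 on the log2 scale, and *SESN2*, an inhibitor of mTORC1, by 1.75. *ATF4* itself rose from 275 ± 9.76 to 537 ± 16.2, a log2 fold change of 0.96. The transcript of *ATF4* says little of its protein, which is controlled in translation.

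Transcripts of the ER sensors IRE1, PERK and ATF6 all rose, by different amounts. *ERN1*, which encodes IRE1, had 11.2, 11.8 and 13.5 normalized CPM in the DMSO libraries and 58.2, 57.2 and 52.7 with PTDSS1i, with no overlap (log2 fold change 2.20, standard error 0.071, edgeR adjusted p = 5.72e-21). *EIF2AK3*, which encodes PERK, rose by 1.17 on the log2 scale and *ATF6* by 0.53. *ATF6B*, the paralog of *ATF6*, fell from 75.4 ± 2.05 to 45.6 ± 0.993 normalized CPM (SD, n = 3), and *EIF2AK4*, the amino acid sensor GCN2, fell by 0.17. *XBP1*, whose mRNA is spliced by IRE1, had 53.4, 47.4 and 55.1 normalized CPM in the DMSO libraries and 179.5, 181 and 188 with PTDSS1i. It rose by 1.82 (standard error 0.046, edgeR adjusted p = 1.22e-21), and gene counts do not separate its spliced form.

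**Figure D2:**
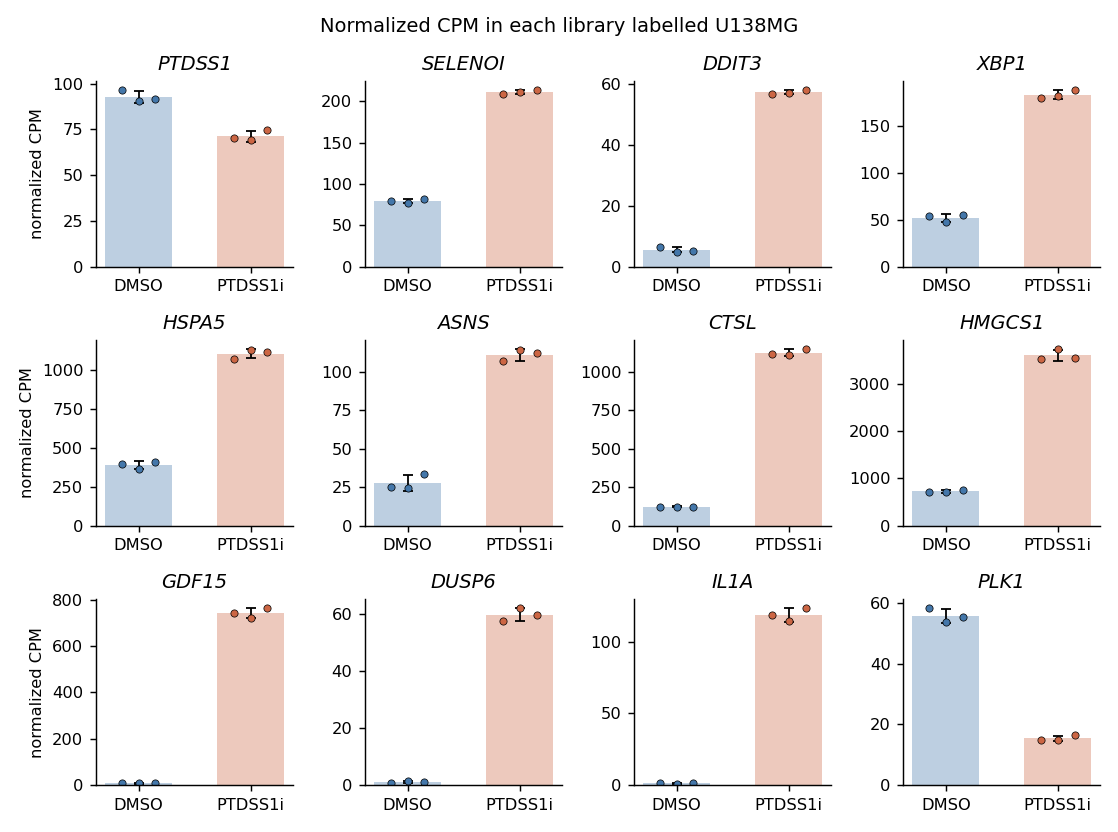
Normalized CPM of 12 genes in each library labelled U138MG, with a point per library, bars at the mean of 3 libraries starting at 0 and error bars of 1 SD. *PTDSS1* and *PLK1* are lower in every PTDSS1i library and the other 10 genes are higher in every PTDSS1i library, without overlap, for example 722 to 765 against 6.11 to 7.63 for *GDF15*.

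A pair of short motifs names the arms of this response in promoter sequence, and 4 promoters that hold them are shown so that the letters can be read beside the values. The CARE, bound by ATF4 together with a C/EBP partner, was searched as TGATGNAA, and the ERSE, bound by ATF6 with NF-Y, as CCAAT and CCACG with any 9 bases between them, on both strands, in RefSeq promoters of GRCh38.p14 that run from 250 bases before to 50 bases after the gene start. Capitals mark the match. The match lies at -68 in *ASNS* (chr7:97872359-97872658, minus strand) and, on the opposite strand to the gene, at -209 in *CHAC1* (chr15:40953221-40953520, plus strand). It lies at -66 in *HSPA5* (chr9:125241294-125241593, minus strand) and at -52 in *XBP1* (chr22:28800520-28800819, minus strand). A match is a run of letters and not a shown binding site.
ASNS: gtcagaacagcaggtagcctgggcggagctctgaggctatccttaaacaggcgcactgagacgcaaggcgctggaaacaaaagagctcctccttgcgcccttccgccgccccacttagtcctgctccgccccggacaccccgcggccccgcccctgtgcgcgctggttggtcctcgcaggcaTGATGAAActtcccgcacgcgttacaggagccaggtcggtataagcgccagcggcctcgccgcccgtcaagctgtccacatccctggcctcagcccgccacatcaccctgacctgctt
CHAC1: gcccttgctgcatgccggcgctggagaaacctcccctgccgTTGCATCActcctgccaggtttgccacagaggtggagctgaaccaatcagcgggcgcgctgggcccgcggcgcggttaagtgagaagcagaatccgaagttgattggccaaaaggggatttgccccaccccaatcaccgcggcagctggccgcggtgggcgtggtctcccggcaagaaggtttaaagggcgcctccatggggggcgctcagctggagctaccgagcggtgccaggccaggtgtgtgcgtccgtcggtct
HSPA5: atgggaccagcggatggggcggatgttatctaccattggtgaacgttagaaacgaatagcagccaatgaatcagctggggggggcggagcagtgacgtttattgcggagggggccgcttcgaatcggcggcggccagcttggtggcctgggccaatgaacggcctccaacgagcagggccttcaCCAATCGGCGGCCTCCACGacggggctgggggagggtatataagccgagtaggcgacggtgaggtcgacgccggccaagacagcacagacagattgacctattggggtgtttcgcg
XBP1: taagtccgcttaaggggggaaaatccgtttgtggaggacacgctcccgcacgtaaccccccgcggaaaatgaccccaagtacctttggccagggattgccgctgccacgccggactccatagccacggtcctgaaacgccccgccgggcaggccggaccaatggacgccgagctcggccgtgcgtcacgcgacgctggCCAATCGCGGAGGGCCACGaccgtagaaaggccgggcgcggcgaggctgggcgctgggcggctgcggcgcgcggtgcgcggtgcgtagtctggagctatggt

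Transcripts of amino acid synthesis genes rose more often than they fell. Of 21 tested genes of amino acid synthesis 13 rose and 6 fell, with 7 rises over 2-fold and none of the falls. *ASNS*, asparagine synthetase, had 25.1, 24.6 and 33.9 normalized CPM in the DMSO libraries and 107, 114 and 113 with PTDSS1i. DMSO 3 stood above the other 2 vehicle libraries, and the groups did not overlap (log2 fold change 2.00, standard error 0.13, edgeR adjusted p = 5.26e-05). *PSAT1*, an aminotransferase of serine synthesis, rose from 88.2 ± 10.2 to 252 ± 7.67 normalized CPM (SD, n = 3). *PHGDH*, which starts the serine pathway, fell by 0.20 on the log2 scale. The mitochondrial folate enzymes *MTHFD1L*, *ALDH1L2*, *MTHFD2* and *SHMT2* rose by 1.32, 1.46, 0.99 and 0.66, and *GLUL*, glutamine synthetase, fell by 0.75.

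Carriers that bring amino acids into the cell rose in 13 of 16 tested genes and fell in 2, with a median log2 fold change of 0.76. *SLC7A11*, the cystine carrier, rose from 36.8 ± 3.14 to 149 ± 9.98 normalized CPM (SD, n = 3), or 2.02 as the log2 fold change. *SLC7A5* and *SLC3A2*, the light and heavy chain of a leucine exchanger, rose by 0.79 and 0.95. *SLC7A8*, another light chain of the same heavy chain, fell by 0.61.

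The enzymes that charge tRNA divided by compartment. Of 20 cytosolic aminoacyl-tRNA synthetases 17 rose and 2 fell, 7 of the rises over 2-fold, with a median log2 fold change of 0.60. Of 17 mitochondrial ones 3 rose and 7 fell, none by more than 2-fold, with a median of -0.086. *WARS1*, for tryptophan, had 85.3, 77.7 and 87.5 normalized CPM in the DMSO libraries and 333, 338 and 345 with PTDSS1i, with no overlap (log2 fold change 2.02, standard error 0.040, edgeR adjusted p = 9.06e-26). *MARS1*, *GARS1*, *AARS1* and *CARS1* rose by 1.64, 1.62, 1.60 and 1.28. *QARS1* and *HARS1*, both cytosolic, fell by 0.49 and 0.25, and the exons of *HARS1* overlap those of the mitochondrial *HARS2*.

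Transcripts for folding, disposal and export of ER proteins rose broadly. Of 66 tested genes 59 rose and 4 fell, with 20 rises over 2-fold and a median log2 fold change of 0.69. *HSPA5*, the main ER chaperone BiP, had 397, 364 and 409 normalized CPM in the DMSO libraries and 1072, 1127 and 1119 with PTDSS1i, with no overlap (a fold of 2.84, standard error 0.040 on the log2 scale, edgeR adjusted p = 1.11e-20). *DNAJB9* and *MANF*, which assist and stabilise BiP, rose by 1.57 and 1.33, *HSP90B1* by 0.42, and *CALR*, calreticulin, fell by 0.24. *HERPUD1*, a part of the disposal complex, rose from 37.2 ± 1.86 to 151 ± 6.85 normalized CPM (SD, n = 3), while *SEL1L* and *SYVN1*, its core subunits, rose by 0.49 and 0.95. Of 14 genes of COPII vesicles and their cargo receptors 13 rose and none fell, among them *KDELR3*, a receptor that returns ER proteins, from 5.04 ± 0.349 to 25.2 ± 0.792, and the coat subunit *SEC24D*, from 23.4 ± 0.392 to 66.8 ± 3.94.

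Transcripts of cholesterol synthesis rose almost throughout. Of 20 tested enzymes 19 rose and 1 fell, 14 of the rises were over 2-fold, and the median log2 fold change was 1.61. *HMGCS1*, which makes HMG-CoA, had 723, 705 and 753 normalized CPM in the DMSO libraries and 3531, 3736 and 3547 with PTDSS1i. Each treated library was above 4 times the highest vehicle library (log2 fold change 2.31, standard error 0.037, edgeR adjusted p = 7.14e-28). *ACAT2*, *MVD*, *MSMO1* and *DHCR7*, from the start to the end of the pathway, rose by 2.42, 2.14, 1.99 and 1.91. The exons of *ACAT2* overlap those of *SOD2* and *TCP1*.

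Uptake and control of sterols were mixed. *INSIG1*, an ER anchor of the SREBP pathway, rose by 1.32, whereas *SREBF1*, which encodes an SREBP, fell by 0.17 and *SCAP*, its escort, by 0.32. *MYLIP*, a ubiquitin ligase, fell from 93.2 ± 2.50 to 46.7 ± 1.91 normalized CPM (SD, n = 3). Of 18 genes of fatty acid synthesis and desaturation 15 rose and 2 fell, with a median log2 fold change of 0.87. *FASN*, fatty acid synthase, rose from 1114 ± 44.2 to 4004 ± 14.8 normalized CPM, and the desaturases *SCD* and *FADS1* rose by 1.67 and 1.22. Lipases and an acyltransferase of triglyceride turnover, *MGLL*, *LIPE* and *GPAT3*, rose by 2.39, 2.36 and 2.56. *DGAT2*, which makes triglyceride, fell by 0.40, and *PLIN2*, a lipid droplet coat, rose from only 0.204 ± 0.126 normalized CPM to 1.34 ± 0.410 (SD, n = 3).

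Lysosomal genes rose in 38 of 55 and fell in 10, with a median log2 fold change of 0.47. *CTSL*, a cysteine protease, had 124, 124 and 119 normalized CPM in the DMSO libraries and 1117, 1108 and 1147 with PTDSS1i, with no overlap (log2 fold change 3.20, standard error 0.036, edgeR adjusted p = 3.21e-31). *CTSV*, its closest relative, and *CTSB* fell by 1.22 and 0.58, and *CTSD*, an aspartic protease, rose by 1.10. *NPC1*, which exports cholesterol from the lysosome, rose from 101 ± 2.63 to 357 ± 5.83 normalized CPM (SD, n = 3), with exons that overlap those of *RMC1*. Of 3 tested MiT/TFE transcription factors of lysosomal genes, *TFEB* and *MITF* fell by 0.89 and 0.79 and *TFE3*, named after its value was seen, rose by 0.89.

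Autophagy genes were not moved as a whole. Of 43 tested, 19 rose, 8 fell and 16 did not pass, and the median log2 fold change of 0.074 turned negative under scaling by library size alone or by the upper quartile. *SQSTM1*, the cargo receptor p62, had 747, 734 and 803 normalized CPM in the DMSO libraries and 3435, 3353 and 3553 with PTDSS1i, with no overlap (log2 fold change 2.18, standard error 0.038, edgeR adjusted p = 5.09e-27). *TP53INP2*, *ATG9B*, *WIPI1* and *MAP1LC3B*, which act in building the autophagosome, rose by 2.70, 2.46, 2.28 and 1.23. *ULK1*, the kinase that starts autophagy, had 87.7 ± 4.57 and 90.6 ± 3.54 normalized CPM (SD, n = 3) and did not pass, but it passed as a fall by 0.10 under scaling by library size alone. *RETREG1*, a receptor for ER turnover, and *CALCOCO1* fell by 1.13 and 0.87. The exons of *ATG9B* overlap those of *NOS3* and those of *WIPI1* overlap *ARSG*.

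In apoptosis, 23 of 34 tested genes rose and 5 fell. *BBC3*, which encodes the death-promoting BH3 protein PUMA, had 14.7, 14.1 and 16.2 normalized CPM in the DMSO libraries and 66.3, 64.7 and 61.3 with PTDSS1i, with no overlap (log2 fold change 2.10, standard error 0.063, edgeR adjusted p = 1.07e-21). *PMAIP1*, which encodes NOXA, and the effector *BAK1* rose by 1.09 and 1.23. Of 11 BH3-only and effector genes 8 rose and 3 fell, *BIK* rising by 0.59 and *BMF* and *BCL2L11* falling by 1.08 and 0.36. Among survival genes *BCL2L1* and *MCL1* rose by 0.97 and 0.43 and *BCL2* fell by 1.03. The death receptor genes *TNFRSF10A* and *TNFRSF10B* rose from 9.06 ± 0.412 to 29.3 ± 0.943 and from 70.7 ± 4.22 to 185 ± 4.28 normalized CPM (SD, n = 3). Their ligand *TNFSF10*, TRAIL, moved opposite to them and fell from 67.0 ± 3.26 to 16.2 ± 1.81, a log2 fold change of -2.05.

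Redox genes of the NRF2 pathway rose in 19 of 27 and fell in 5, 14 of the rises over 2-fold, with a median log2 fold change of 1.03. *GCLM*, the modifier subunit of glutathione synthesis, rose from 77.6 ± 4.55 to 540.4 ± 22.9 normalized CPM (SD, n = 3), or 2.80 as the log2 fold change. Its catalytic partner *GCLC* fell from 291 ± 17.8 to 170.5 ± 1.63. *ABCC3*, *SRXN1*, *TXNRD1* and *HMOX1* rose by 2.55, 1.70, 1.52 and 1.36, and *KEAP1*, which holds NRF2 down, fell by 0.49. *AKR1C1* and *AKR1B10* rose by 1.24 and 1.69, and reads of the *AKR1C* genes may be shared among their near copies.

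Mitosis and DNA replication genes mostly fell. Of 57 mitosis genes 55 fell and 1 rose, 47 of the falls over 2-fold, with a median log2 fold change of -1.59. Of 47 DNA replication genes 35 fell and 2 rose, 3 of the falls over 2-fold, with a median of -0.44. *PLK1*, a kinase of mitotic entry, had 58.4, 53.7 and 55.6 normalized CPM in the DMSO libraries and 14.9, 14.9 and 16.4 with PTDSS1i, with no overlap (log2 fold change -1.86, standard error 0.064, edgeR adjusted p = 2.38e-20). *CENPE*, a kinetochore motor, fell from 27.3 ± 1.55 to 3.56 ± 1.12 (SD, n = 3), and *CENPF* and *ASPM* had log2 fold changes of -2.93 and -2.73. For *CENPF* the treated libraries were far apart, at 26.7, 21.3 and 14.5 normalized CPM, against 149.8 to 170.4 in DMSO. *MKI67*, the proliferation antigen, fell from 182 ± 6.96 to 37.3 ± 3.30, and *CCNB1*, *CDK1*, *CDC20* and *FOXM1* fell by 1.63, 1.26, 1.70 and 1.49. *CDC25B*, a phosphatase that activates the mitotic kinase, was the gene that rose, by 0.21, a call lost under scaling by library size alone or by the upper quartile.

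Among replication genes, *RRM2* and *TYMS*, which serve the supply of deoxynucleotides, fell by 1.74 and 1.22 on the log2 scale. The exons of *TYMS* overlap those of *ENOSF1*. The helicase subunit *MCM2* went from 143 ± 6.77 to 105 ± 7.05 normalized CPM (SD, n = 3), a fall by 0.44. The sliding clamp *PCNA* fell by 0.43 and the licensing factor *CDT1* by 0.66. *CDC6*, another licensing factor, went the other way, from 35.4 ± 1.59 to 44.9 ± 4.49 (log2 fold change 0.34, edgeR adjusted p = 6.32e-05), as did *ORC3*, by 0.52.

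Regulators of entry into the cycle were mixed, with 13 of 29 tested genes rising and 10 falling. *CCND1*, cyclin D1, had 372, 371 and 382 normalized CPM in the DMSO libraries and 898, 922 and 925 with PTDSS1i, with no overlap (log2 fold change 1.29, standard error 0.033, edgeR adjusted p = 2.42e-23). *CCNE1* and *CCNE2*, the E cyclins, moved apart, the former rising by 0.52 and the latter falling by 1.01. *CDKN1A*, the inhibitor p21, rose from 59.1 ± 1.91 to 113 ± 5.72 (SD, n = 3), though a non-coding RNA shares exon bases with it. *E2F7* rose by 0.87, *E2F8* and *E2F2* fell by 2.06 and 1.57, and *E2F1* had 31.6 ± 0.983 and 34.9 ± 4.68 and did not pass, though it did without PTDSS1i replicate 2, at a log2 fold change of 0.23. Of 19 targets of p53, 10 rose and 8 fell, *PLK3* and *GADD45A* rising by 3.06 and 1.11 and *FDXR* and *DDB2* falling by 1.26 and 1.10.

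**Figure D3:**
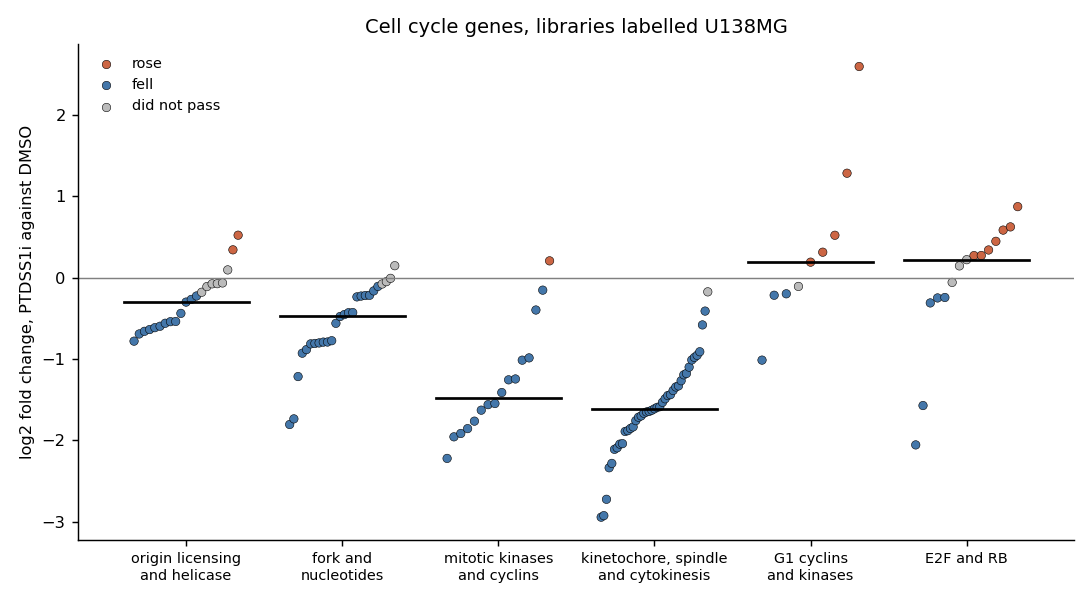
Log2 fold change of PTDSS1i against DMSO for each tested gene (points, coloured by whether it rose, fell or did not pass) in 6 groups of cell cycle genes, with a black line at the median of the group. The medians of the 2 mitotic groups are -1.48 and -1.61, those of the 2 replication groups -0.30 and -0.47, and those of the G1 cyclins and of the E2F and RB genes 0.19 and 0.22.

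The promoter of *PLK1* (chr16:23678639-23678938, plus strand, RefSeq GRCh38.p14) is shown for a motif whose share differed between mitotic and replication promoters. The CHR, a motif of genes controlled by the DREAM and B-MYB complexes, was searched as TTTGAA or TTCGAA on both strands, and capitals mark the match at -29.
PLK1: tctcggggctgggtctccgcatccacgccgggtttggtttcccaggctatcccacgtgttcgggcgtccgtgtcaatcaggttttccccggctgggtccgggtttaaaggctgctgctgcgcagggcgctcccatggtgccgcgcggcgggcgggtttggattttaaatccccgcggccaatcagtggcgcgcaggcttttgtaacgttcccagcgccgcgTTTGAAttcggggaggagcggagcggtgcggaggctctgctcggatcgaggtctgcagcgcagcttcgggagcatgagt

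Keratins changed strongly in both directions. All 20 tested keratin genes passed, 11 rising and 9 falling, and 15 of them changed over 2-fold. Another 13 of the 33 listed were not tested. The filter keeps a keratin that is high in either group and leaves out those low in both, so these shares do not cover the whole list. *KRT75*, a hair follicle keratin, had 1.35, 1.15 and 0.932 normalized CPM in the DMSO libraries and 163, 144 and 143 with PTDSS1i. Its log2 fold change was 7.04 (standard error 0.095, edgeR adjusted p = 2.36e-24). This was the highest among genes with a symbol, a mean of at least 10 normalized CPM and no overlap between the groups. *KRT23*, *KRT6B* and *KRT80* rose by 3.73, 3.67 and 3.18, and *KRT17* rose from 276 ± 64.8 to 709 ± 59.2 (SD, n = 3). Reads of *KRT6A* and *KRT6B*, and of *KRT16* and *KRT17*, may be shared with near copies and pseudogenes.

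Keratins of moist squamous epithelium such as that of the esophagus fell, and so did basal ones. *KRT13* had 91.6, 82.4 and 70.3 normalized CPM in the DMSO libraries and 0.307, 0.414 and 0.200 with PTDSS1i, at most 9 counts in a treated library (log2 fold change -8.05, standard error 0.20, edgeR adjusted p = 3.51e-10). Its partner *KRT4* had 30.7, 25.5 and 28.8 against 0.0878, 0.184 and 0.240, at most 6 counts in a treated library. *KRT15*, a basal keratin, fell from 4629 ± 334 to 482 ± 42.3 (SD, n = 3), and *KRT5*, the basal type II keratin, from 1399 ± 85.5 to 554 ± 17.4. The summed level of the 16 epithelial and squamous markers went from 9376 to 10261 CPM of the library total in DMSO to 4867 to 5151 in PTDSS1i. Without *KRT15* it was 4876 to 5116 in DMSO and 4457 to 4671 in PTDSS1i. Not all of these markers fell, since 7 rose and 7 fell of 15 tested, and the stratifin gene *SFN* went from 282 to 1064 CPM of the library total. The exons of *KRT75* and *KRT13* overlap unnamed genes.

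Differentiation genes of squamous epithelium also went both ways, 27 rising and 27 falling of 57 tested. The same limit of the filter holds here, with 18 of 75 listed genes not tested. *IVL*, involucrin of the cornified envelope, had 1.80, 1.88 and 1.91 normalized CPM in the DMSO libraries and 15.4, 18.5 and 17.2 with PTDSS1i, with no overlap (log2 fold change 3.19, standard error 0.13, edgeR adjusted p = 1.71e-18). *SPRR1A*, another envelope protein, had no count in DMSO and at most 47 counts in a treated library, and was at least 14.1-fold higher. The serpins *SERPINB4* and *SERPINB3*, near copies of each other whose reads may be shared, rose by 5.76 and 4.13, and the proteases *KLK6* and *KLK5* by 2.14 and 2.00. *TGM1*, the enzyme that crosslinks the envelope, fell by 0.85, a call lost without DMSO replicate 2 or PTDSS1i replicate 3.

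Transcription factors of this lineage fell more often than they rose, 14 against 7 of 21. *SOX2*, a factor of basal progenitors, had 36.3, 35.8 and 38.9 normalized CPM in the DMSO libraries and 4.65, 4.01 and 4.91 with PTDSS1i, with no overlap (log2 fold change -3.03, standard error 0.090, edgeR adjusted p = 8.58e-22). *ZNF750*, a factor of terminal differentiation, and *GATA3* fell by 2.77 and 1.02, and *TP63*, the master factor of the lineage, by 0.36. *KLF4* rose by 0.56. Of 9 desmosome genes 6 fell and 3 rose, *DSC3* from 244 ± 3.84 to 72.2 ± 2.67 (SD, n = 3).

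**Figure D4:**
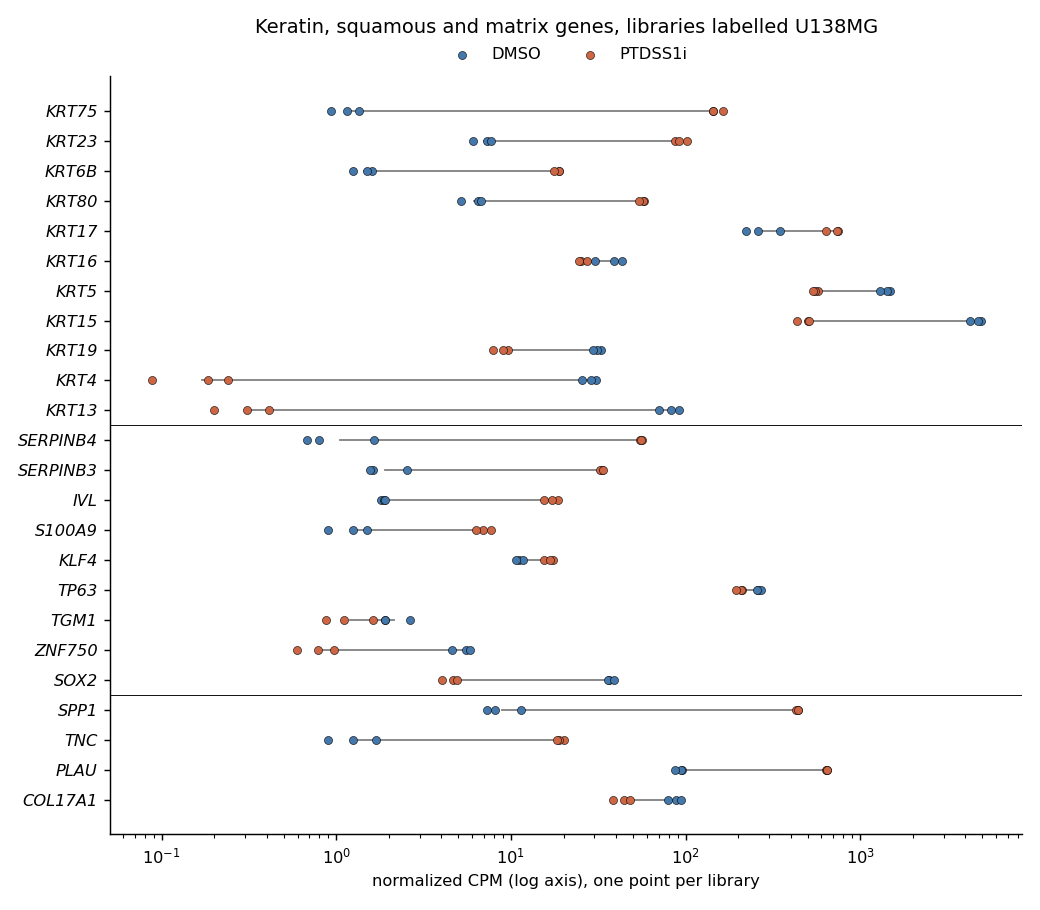
Normalized CPM (log axis) of keratin genes (top), squamous differentiation genes (middle) and matrix genes (bottom) in the libraries labelled U138MG, with a blue point per DMSO library, an orange point per PTDSS1i library and a line between the means of the groups. *KRT75* and *KRT13* cross the axis in opposite directions, from 1.14 to 150.1 and from 81.4 to 0.307.

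The promoter of *IVL* (chr1:152908296-152908595, plus strand, RefSeq GRCh38.p14) is shown for the AP-1 motif, bound by FOS and JUN factors, which was searched as TGANTCA on both strands. Capitals mark the match at -123.
IVL: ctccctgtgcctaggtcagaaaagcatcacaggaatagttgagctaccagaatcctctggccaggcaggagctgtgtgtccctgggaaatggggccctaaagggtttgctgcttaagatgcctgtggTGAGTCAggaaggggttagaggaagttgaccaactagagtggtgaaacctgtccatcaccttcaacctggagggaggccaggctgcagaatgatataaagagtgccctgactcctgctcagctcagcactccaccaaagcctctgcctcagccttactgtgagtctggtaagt

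Genes of adhesion, matrix and its proteases rose in 37 of 49 and fell in 7, 21 of the rises over 2-fold, with a median log2 fold change of 0.80. *SPP1*, the secreted matrix protein osteopontin, had 7.29, 8.12 and 11.4 normalized CPM in the DMSO libraries and 441, 431 and 441 with PTDSS1i, with no overlap (log2 fold change 5.61, standard error 0.11, edgeR adjusted p = 3.28e-08). *TNC*, tenascin C, rose by 3.88 and *CCN5* by 3.82. The protease urokinase and its receptor rose together. *PLAU* went from 92.4 ± 4.48 to 643 ± 4.82 normalized CPM and its receptor *PLAUR* from 6.66 ± 0.370 to 37.7 ± 1.36 (SD, n = 3). *SERPINE2*, a serine protease inhibitor, rose by 3.61. Of 11 integrins 10 rose and none fell, *ITGA5*, the fibronectin receptor subunit, by 2.51 and *ITGB6* by 1.24. *COL17A1*, *SPARC* and *FN1* fell by 1.00, 0.89 and 0.64. The exons of *PLAU* overlap those of *C10orf55* and those of *TNC* overlap *DEC1*.

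Targets and feedback inhibitors of the ERK kinase pathway rose in 21 of 28 and fell in 3, 18 of the rises over 2-fold, with a median log2 fold change of 1.59. *DUSP6*, the phosphatase that switches ERK off, had 0.749, 1.28 and 0.976 normalized CPM in the DMSO libraries and 57.5, 62.0 and 59.7 with PTDSS1i, with no overlap (log2 fold change 5.87, standard error 0.11, edgeR adjusted p = 1.57e-26). *SPRY4*, another brake of the pathway, had at most 12 counts in a DMSO library and 15.2, 16.2 and 18.5 normalized CPM in PTDSS1i. *ETV5* and *ETV4*, transcription factors downstream of ERK, rose by 6.93 and 3.95, and *FOSL1*, an AP-1 subunit, from 1.34 ± 0.419 to 81.0 ± 3.00 normalized CPM (SD, n = 3). *EGR1*, an immediate early target, moved the other way and fell by 0.32. Exon bases of *ETV5* are shared with *DGKG*.

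In the EGFR family several ligands rose while the receptor genes *EGFR* and *ERBB3* fell. *HBEGF*, a ligand, had 0.749, 0.641 and 0.754 normalized CPM in the DMSO libraries and 21.9, 23.3 and 23.0 with PTDSS1i, with no overlap (log2 fold change 4.98, standard error 0.14, edgeR adjusted p = 2.01e-22). The ligands *EREG*, *AREG* and *TGFA* rose by 3.94, 2.05 and 0.84, whereas the ligand *EGF* fell by 0.73. *EGFR*, their receptor, fell from 277 ± 22.2 to 108 ± 7.35 normalized CPM (SD, n = 3), and *ERBB3* and *LRIG1*, a partner receptor and an inhibitor of the family, fell by 0.81 and 0.58. Across the 15 tested receptors and ligands 7 rose and 7 fell, with a median log2 fold change of -0.36.

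Among tested genes, cytokines, chemokines and stress-induced secreted factors had the highest median log2 fold change of the pathway lists, 2.45. There 29 of 36 tested genes rose and 4 fell, and 13 of 49 listed genes were not tested. A gene low in DMSO can pass the filter through the treated libraries, while one low in both groups is left out. Neither the median nor its rank therefore covers the whole list. *IL1A* had 1.20, 0.897 and 1.11 normalized CPM in the DMSO libraries and 119, 114 and 124 with PTDSS1i, with no overlap (log2 fold change 6.80, standard error 0.086, edgeR adjusted p = 2.69e-30). *IL1B*, the other interleukin 1, and the chemokines *CXCL8* and *CCL20* rose by 6.09, 6.17 and 5.72, each from under 4 normalized CPM in every DMSO library. *CXCL1* rose by 2.72, and *TNFAIP3*, a brake of NF-kB signalling, by 1.60. Of 9 tested chemokines 7 rose and 2 fell, both falls over 2-fold. These were *CCL28* and *CXCL10*, named after their values were seen, with log2 fold changes of -4.84 and -2.38. *GDF15*, a secreted factor of the stress response, had 6.34, 6.11 and 7.63 against 743, 722 and 765 (log2 fold change 6.79, standard error 0.056, edgeR adjusted p = 1.50e-34). *INHBE*, *ADM2* and *STC2*, further secreted products of that response, rose by 5.69, 3.13 and 1.59, and *VEGFA*, the angiogenic factor, from 194 ± 16.6 to 1337 ± 45.9 (SD, n = 3).

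The promoter of *CCL20* (chr2:227813592-227813891, plus strand, RefSeq GRCh38.p14) is shown for the NF-kB motif, searched as GGG and TTTCC with any 2 bases between them, on both strands. Capitals mark the match at -79, on the opposite strand to the gene.
CCL20: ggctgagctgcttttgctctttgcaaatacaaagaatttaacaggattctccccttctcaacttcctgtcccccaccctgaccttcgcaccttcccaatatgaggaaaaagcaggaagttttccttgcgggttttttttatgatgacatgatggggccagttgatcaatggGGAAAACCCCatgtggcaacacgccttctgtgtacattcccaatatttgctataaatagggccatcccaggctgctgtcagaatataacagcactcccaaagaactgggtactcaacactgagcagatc

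Interferon and antigen presentation genes did not follow the cytokines. Of 61 tested genes 24 rose, 21 fell and 16 did not pass, with a median log2 fold change of -0.012. *IFI44L*, an interferon-stimulated gene, had 19.9, 22.1 and 20.5 normalized CPM in the DMSO libraries and 2.76, 2.81 and 2.32 with PTDSS1i, with no overlap (log2 fold change -2.99, standard error 0.11, edgeR adjusted p = 3.25e-19). *BST2* and *TLR3* fell by 1.54 and 2.08. *OASL*, a gene of the same class, rose from 5.48 ± 0.839 to 22.7 ± 2.36 (SD, n = 3), *CGAS*, the sensor of cytosolic DNA, rose by 1.63, and *NLRC5*, an activator of MHC class I genes, by 1.79. *B2M* and *TAP1*, parts of the class I pathway, rose by 0.47 and 0.97.

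Several inhibitors of differentiation and BMP targets fell. Of 42 tested genes of YAP/TEAD, Notch and TGF-beta signalling 11 rose and 23 fell, 3 and 10 of them over 2-fold. *ID3*, which blocks basic helix-loop-helix factors and is a target of BMP, had 373, 361 and 315 normalized CPM in the DMSO libraries and 51.8, 52.5 and 51.8 with PTDSS1i, with no overlap (log2 fold change -2.75, standard error 0.062, edgeR adjusted p = 7.90e-12). *ID2* and *SMAD6*, an inhibitory SMAD, fell by 2.63 and 2.59, and *ID1* by 0.49. *DLL1*, a Notch ligand, fell from 98.4 ± 5.07 to 10.8 ± 1.59 (SD, n = 3), *HES2* by 2.97 and *NOTCH3* by 0.70, while *HES1*, the best known Notch target, had 61.3 ± 4.14 and 59.5 ± 1.43 and did not pass, though it passed as a fall by 0.19 under scaling by library size alone. *TGFB1* and *F3*, tissue factor, rose by 1.29 and 1.79.

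Nuclear-encoded subunits of the respiratory chain and ribosomal proteins moved little, while some genes of glycolysis and the hypoxia response moved more. None of the 72 nuclear-encoded respiratory chain subunits changed over 2-fold, 15 rising and 31 falling. Of 75 cytosolic ribosomal proteins 46 fell and 4 rose, none over 2-fold, with a median log2 fold change of -0.11, and *RPS2* fell by 0.79. The rises of *RPS27*, *RPL37*, *RPL23A* and *RPS16*, at most 0.12, changed sign under scaling by library size alone or by the upper quartile, without passing there. Glycolysis genes rose in 12 of 20 and fell in 4, with 2 of the rises over 2-fold. Of 13 hypoxia response genes 4 rose and 3 fell, again with 2 rises over 2-fold. *SLC2A1*, the glucose carrier, had 631, 787 and 617 normalized CPM in the DMSO libraries and 417, 413 and 332 with PTDSS1i (log2 fold change -0.81, edgeR adjusted p = 0.00915), and *HK2*, hexokinase, rose by 0.90. *CA9*, a marker of hypoxia, had 56.5 ± 12.2 and 59.8 ± 9.37 (SD, n = 3) with overlapping groups. *BHLHE40*, a repressor responsive to hypoxia and stress, rose from 68.9 ± 8.38 to 408 ± 15.9.

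Several of the largest changes over all genes lay outside these lists. *CREB5*, a transcription factor, had 0.599, 0.214 and 0.177 normalized CPM in the DMSO libraries and 41.0, 39.9 and 36.6 with PTDSS1i, with no overlap (log2 fold change 6.92, standard error 0.16, edgeR adjusted p = 2.80e-22). *PADI1*, which converts arginine to citrulline in the epidermis, *NEURL3*, a ubiquitin ligase, and *GCNT3*, a mucin glycosyltransferase, rose by 6.71, 6.19 and 5.71, each from at most 11 counts in a DMSO library. Among the falls was *ALDH1A1*, which makes retinoic acid, from 27.0 ± 2.50 to 1.48 ± 0.527 normalized CPM (SD, n = 3), or -4.19 as the log2 fold change. *IGFBP5*, which binds insulin-like growth factors, had 409.7, 404 and 388 in DMSO and 40.4, 43.4 and 24.4 in PTDSS1i, where PTDSS1i 3 was lowest. *EFEMP1*, a matrix protein, *ESPN*, an actin bundler, *PRODH*, proline dehydrogenase, and *TP73*, a relative of p53 and p63, fell by 3.55, 3.80, 3.35 and 3.10. *DLX3*, a homeobox factor of epidermis, fell by 3.42 and the non-coding *LINC02593* by 3.98, and *SAMD11*, *RAB7B* and *TMT1A* by 3.19, 3.08 and 3.05.

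Promoters of several lists held a motif more often than those of the tested genes at large. Of 1068 tested list genes 836 matched a RefSeq promoter, and of all tested genes 12036 did. The CARE was in 6 of 16 promoters of cytosolic tRNA synthetases (37.5%), 4 of 14 of amino acid transporters (28.6%) and 3 of 13 of amino acid synthesis (23.1%), against 1.77% of tested genes and 3.67% of all 27305 promoters. The ERSE was in 6 of 20 promoters of ER chaperones and oxidoreductases (30.0%), against 0.125% and 0.0806%. Among these holders the chaperone gene *CALR*, with an ERSE, fell by 0.24, and the transporter gene *SLC1A3*, with a CARE, fell by 0.44. The other holders in the chaperone and transporter lists had positive log2 fold changes. The CHR was in 31 of 46 promoters of mitosis genes (67.4%) and 2 of 40 of replication genes (5.0%), against 11.4% and 16.6%.

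NF-kB letters were in 4 of 7 chemokine promoters (57.1%), against 2.07% of tested genes and 1.92% of all promoters. AP-1 letters were in 5 of 12 promoters of the cornified envelope (41.7%), against 5.08% and 7.76%. The antioxidant element of NRF2, searched as TGACNNNGC, was in 5 of 21 promoters of its list (23.8%), against 14.9% and 13.6%, a smaller gap. The sterol element, searched as TCACNCCAC, was in 0 of 15 promoters of cholesterol synthesis, which says only that these letters are not in these windows. The antioxidant element can share bases with the AP-1 letters, as at -137 in *ME1*. These shares are descriptions of lists whose choice and whose motif follow what is known of the genes, and no test was made.

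**Figure D5:**
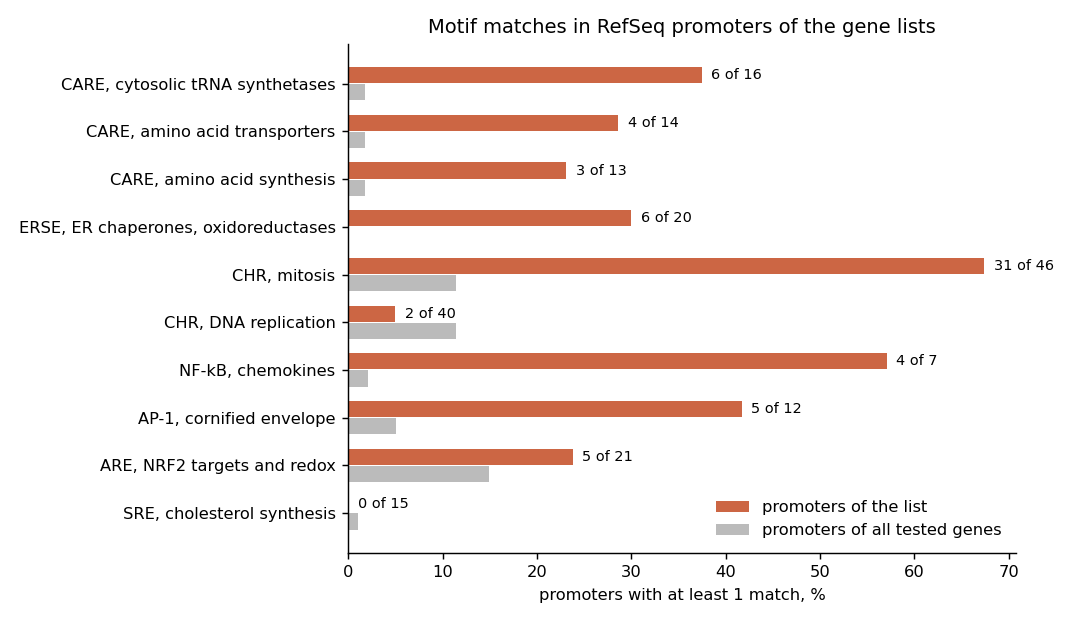
Share of promoters with at least 1 match of a motif, in percent, for the promoters of a gene list (orange, with the count of promoters) and for the promoters of all tested genes (grey). The CHR is found in 67.4% of mitosis promoters and 5.0% of replication promoters, and the ERSE in 30.0% of chaperone promoters against 0.125% of tested genes, a bar too short to see.

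The effect of PTDSS1i differed between the libraries labelled U138MG and those of KYSE30 for 9188 of 18405 genes (49.9%), in edgeR's quasi-likelihood test of the interaction of line and treatment, adjusted after Benjamini and Hochberg. The labels give each line a batch of its own, and its table has its own gene annotation, so line, batch and annotation cannot be told apart. The falls of replication genes were smaller in the libraries labelled U138MG, and 44 of 47 had a higher log2 fold change there, against 25.5% of all genes, with medians of -0.44 and, in KYSE30, -1.52. Mitosis genes had medians of -1.59 and -1.48, and 27 of 57 differed, a share near that of all genes, 12 higher and 15 lower in the libraries labelled U138MG. *MCM2*, for example, had log2 fold changes of -0.44 and -1.97 (difference 1.53, standard error 0.072, edgeR adjusted p = 1.29e-17).

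Interferon-stimulated and antigen presentation genes had a lower log2 fold change in the libraries labelled U138MG for 49 of 64 genes, against 24.4% of all genes, and a higher one for 2, with medians of 0.017 and, in KYSE30, 1.04. Sterol genes were also lower for 24 of 34, with medians of 0.99 and 1.91. ERK targets were higher for 21 of 28 and lower for 3, with medians of 1.60 and 0.59. The 5 genes with the largest positive difference at 10 CPM or more in both lines were *ETV5*, *SPP1*, *FOSL1*, *DUSP6* and *TNC*. *SPP1* and *TNC* fell in KYSE30, by 0.94 and 0.93, and rose in the libraries labelled U138MG. The 5 with the largest negative difference were *KRT13*, *KRT4*, *IFI44L*, *KRT15* and *LINC02593*. *KRT13* and *KRT4* fell in both lines, by 1.84 and 1.66 in KYSE30, whereas *IFI44L* and *KRT15* rose in KYSE30, by 1.53 and 1.01.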

How the data were processed

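Poly-A RNA of 12 cultures was sequenced with a kit that does not mark strand, so reads of a gene and of an overlapping partner cannot be told apart. The authors deposited raw counts per gene, without normalization, in a table for each line. The submitters' processing notes name Trimmomatic, STAR, featureCounts and hg38, and the annotation is not given in the sources used here. Groups came from the sample labels. In R 4.3.3, edgeR 4.0.16 kept genes by filterByExpr (minimum count 10, minimum total 15), scaled counts by TMM and compared PTDSS1i with DMSO by the quasi-likelihood test in its robust form, adjusted after Benjamini and Hochberg over all tested genes, at an adjusted p under 0.05 and, where said, an absolute log2 fold change over 1. The difference between the lines is the interaction over 18405 genes in both tables. DESeq2 1.42.0 was an alternative. Figures were drawn in Python 3.11.15 with matplotlib 3.10.9.

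Replicate pairs differed by more than sampling noise, the chi-square divided by its degrees of freedom being 2.45 to 4.22, so each library counted as a sample. The labels do not say more of how cultures were kept apart, and p-values measure the spread between these samples. An exact permutation test of 3 against 3 cannot go below a p of 0.1. Where no library of a group exceeds 3 counts of a gene, its fold is given as a bound, and such limits cover counting error only. Gene lists and members were chosen with earlier results of these data known. Genes were named by rule, as key members of a list, as the 5 largest changes per list and direction with a mean of at least 5 CPM, as the 15 largest overall and the 5 largest between lines with at least 10 CPM, or as markers. Exon overlaps come from GENCODE v29, which holds 16278 of the tested genes, 8287 of them with an overlap, and may differ from the annotation of the authors. Tests were tried on simulated data with known changes, 190 among 17331 genes within the line. There edgeR recovered 95 of 96 changes of 2-fold, with 6 false calls. For the difference between the lines it recovered 59 of 99 such changes. Far more genes changed in the measured libraries, so the simulation does not show how the tests do in that setting. Results for a few genes are not reported here. Marker sums without *KRT15* were computed after seeing the data.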

Additional observations from a re-analysis of the deposited data

Results flagged for a closer look

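The response to PTDSS1i differed between the libraries labelled U138MG and those of KYSE30 by a test of the difference itself, edgeR's quasi-likelihood test of the interaction of line and treatment with Benjamini-Hochberg adjustment, for 9188 genes. The differences of log2 fold changes, U138MG minus KYSE30, were 6.64 for *ETV5* (adjusted p = 3.54e-23), 6.55 for *SPP1* (adjusted p = 1.55e-09), 5.43 for *FOSL1* (adjusted p = 2.26e-06), 4.93 for *DUSP6* (adjusted p = 2.16e-23) and 4.82 for *TNC* (adjusted p = 4.64e-23). They were -6.21 for *KRT13* (adjusted p = 1.11e-08), -5.64 for *KRT4* (adjusted p = 1.06e-12), -4.52 for *IFI44L* (adjusted p = 1.12e-04), -4.27 for *KRT15* (adjusted p = 2.56e-19) and -4.20 for *LINC02593* (adjusted p = 7.34e-08). *LINC02593* had a log2 fold change of 0.22 in KYSE30 (adjusted p = 0.265).

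By list, the log2 fold change was higher and lower in the libraries labelled U138MG for 44 and 1 of 47 DNA replication genes, 2 and 49 of 64 interferon and antigen presentation genes, 27 and 7 of 43 genes of ERK feedback and the EGFR family, and 4 and 24 of 34 sterol genes, against 25.5% and 24.4% of all 18405 genes. For mitosis it was 12 and 15 of 57 genes, near the shares of all genes. The labels give each line a batch of its own, so line and batch cannot be told apart in these differences.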

How the results depend on the processing

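Counts of 1446 higher and 2048 lower genes in the libraries labelled U138MG became 1181 and 2554 under scaling by library size alone and 1184 and 2553 under upper-quartile normalization, where the median log2 fold change of all genes moved by -0.147 and -0.146. DESeq2 gave 1418 and 1926. With at least 10 counts required in every library 1273 genes were lower, out of fewer genes tested, and with no threshold on fold change 5989 were higher and 5930 lower. Leaving out 1 library at a time gave 1476 to 1539 higher genes, 2040 to 2246 lower genes and 8712 to 9218 genes that differed between the lines. A replicate block gave 1439 higher and 2030 lower genes and 9439 between the lines, and the numbers do not pair the libraries, since deviations of same-numbered libraries correlated at 0.0088, -0.0029 and 0.048 and DMSO 2 went best with PTDSS1i 1. Other alternatives gave 8334 to 9213 genes between the lines. Of 385 named genes 351 kept their call, as risen, fallen or not passed, under every alternative run. Among genes that passed the test, 5 changed sign under some. Changes of sign were not counted for genes that did not pass, and *PTDSS2* and *CA9* were among those that changed it. Under library-size and upper-quartile scaling, in that order, values were -0.013 and -0.011 for *LPCAT3*, -0.028 and -0.027 for *RPS27*, -0.036 and -0.035 for *RPL37*, -0.044 and -0.043 for *RPL23A*, and -0.064 and -0.063 for *RPS16*. The medians became -0.083 and -0.082 for phosphatidylserine transport and flippases, -0.073 and -0.072 for autophagy, and -0.060 and -0.059 for its initiation and lipidation genes. All of these shifts are of the size of the shift of all genes. Genes under 1 CPM had a median standard error of 0.43 on the log2 scale, against 0.042 at 50 CPM and over, so depth limits small changes of low genes.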
